A study of Caenorhabditis elegans with 2 samples.

Results

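The 6 genes described here code for the chaperones that Caenorhabditis elegans cells keep at work without heat shock, namely hsp-1 and hsp-90 of the cytosol, hsp-3 and hsp-4 of the endoplasmic reticulum (ER), and hsp-6 and hsp-60 of the mitochondria. They are 6 of 19973 nuclear protein-coding genes. They were chosen by name with the measured regions of these samples already known, so the number of them near a region is a description and carries no test. Each gene was given a window from 2 kb upstream of its start to its end, and every region whose summit lay in that window was taken.

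The measurement was chromatin immunoprecipitation with an anti-GFP antibody followed by sequencing (ChIP-seq) of whole late embryos. The worms were of strain OP677, of genotype unc-119(tm4063) III; wgIs677, a stable transgenic line in which the transcription factor CHE-1 carries GFP and FLAG at its C-terminal end. Embryos of mixed sex were collected 6 hours after synchronization by egg bleaching, chromatin was sheared by sonication, and 2 biological replicates form the only group. The labels name no heat treatment, and what promoter drives the transgene is not given in the sources used here. No untagged strain, other time or control library was analysed here, so nothing below separates CHE-1 from the tag, the antibody or open chromatin. The deposited lists hold 30000 regions for each replicate and 30000 for both replicates called together. The authors' set of regions that passed the irreproducible discovery rate (IDR, a procedure that compares the ranks of regions between replicates) holds 791 regions. These are the highest 791 of the list of both, so a single region of the set need not rank alike in each replicate. Regions were ranked by the authors' score, whose scale is not stated, and rank 1 is the highest. Read depth is unknown.

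Chaperones of the HSP70 family bind and release exposed stretches of unfolded proteins in a cycle driven by ATP. The HSP90 family completes the folding of client proteins such as kinases and receptors, and the chaperonin HSP60 encloses proteins in a barrel. The inducible genes hsp-16 and hsp-70 are transcribed strongly after heat shock through the factor HSF-1, which binds repeats of the heat shock element. CHE-1 is a zinc finger factor known for specifying the ASE taste neurons, a single pair of cells in the animal, and none of the 6 chaperone genes is known for that role.

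The sequences at the summits of the highest region of each gene are given here because they let the letters at these positions be compared. Each is the reference sequence (RefSeq, assembly WBcel235) over the 101 bp centred on the summit, on the strand of the gene. Capitals mark matches, on either strand, to 1 of 6 elements. The heat shock element was written as GAANNTTC, and its other arrangement as TTCNNGAA. The core described for CHE-1 was written as GAAACC, and with a G in place of an A as GAAGCC. A further element was CGCACA, which was searched because of its place in earlier results of these data. Another was TATAAA, the TATA box of many promoters. The element TGACGT is the core bound by the ER stress factor XBP-1. The last was GAGAGA, a short purine repeat. Neighbouring matches can overlap, as the pair of CGCACA on opposite strands in hsp-6 does.
hsp-1 (chrIV:17278540-17278640): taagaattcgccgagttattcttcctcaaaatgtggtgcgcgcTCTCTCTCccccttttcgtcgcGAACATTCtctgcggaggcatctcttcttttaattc
hsp-90 (chrV:14685916-14686016): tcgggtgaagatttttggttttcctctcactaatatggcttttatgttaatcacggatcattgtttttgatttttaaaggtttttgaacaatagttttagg
hsp-3 (chrX:6092201-6092301): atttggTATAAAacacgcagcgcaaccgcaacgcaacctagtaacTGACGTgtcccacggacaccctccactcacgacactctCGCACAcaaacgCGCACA
hsp-4 (chrII:7352761-7352861): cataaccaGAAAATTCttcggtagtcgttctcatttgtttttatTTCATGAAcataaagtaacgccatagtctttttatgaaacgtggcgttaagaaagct
hsp-6 (chrV:4827177-4827277): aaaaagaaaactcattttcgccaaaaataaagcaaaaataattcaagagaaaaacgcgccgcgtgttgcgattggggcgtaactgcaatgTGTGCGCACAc
hsp-60 (chrIII:1619086-1619186): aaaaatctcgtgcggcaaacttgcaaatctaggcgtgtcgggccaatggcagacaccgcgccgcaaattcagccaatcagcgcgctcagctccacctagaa

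hsp-1 codes for the main constitutive HSP70 of the cytosol. Its highest region spans chrIV:17278348-17278831 (build ce11) and ranked 216 in the list of both replicates, with a score of 268.5. It ranked 210 in replicate 1, with a score of 160.2, and 255 in replicate 2, with a score of 106.5. Both replicates thus placed it within the highest 791 regions, and their summits lay at the same base, 370 bp upstream of the gene start. The summit of the list of both lay 369 bp upstream, between hsp-1 and the gene clec-196, which ends 1210 bp away on the same strand, and within 100 bp of the non-coding RNA gene F26D10.23. Another 5 regions of the list of both lay in the window, at ranks 4206 to 20609, and the highest of them was in a coding exon 1397 bp into the gene. With 1.37 regions per kb of window, hsp-1 held the densest set of the 6 genes, against a median of 0.235 over all coding genes.

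hsp-90 codes for the HSP90 of the cytosol, also known as daf-21. Its highest region, chrV:14685724-14686207, ranked 742 in the list of both with a score of 130.2. It ranked 504 in replicate 1 and 3354 in replicate 2. The replicates therefore differed widely here, and only replicate 1 placed the region within its highest 791. The summit lay inside the gene, in an intron 1048 bp from the gene start and 194 bp upstream of the start of a shorter annotated transcript. The start of another coding gene, C47E8.4, which overlaps hsp-90 on the opposite strand and is described in RefSeq as a FAM50 homolog, lay 481 bp away, closer than the start of hsp-90. Among the 6 summit sequences that of hsp-90 was the poorest in G and C, at 30.7%, and 3.12% of the 770 nuclear regions of the IDR set were poorer. The region 454 bp upstream of the gene start, in the promoter of the longer transcript and also within C47E8.4, ranked 27399.

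hsp-3 codes for an HSP70 of the ER lumen, a counterpart of mammalian BiP. Its highest region, chrX:6092009-6092492, ranked 777 in the list of both with a score of 128.3, and its summit lay 127 bp upstream of the gene start. In replicate 1 it ranked 514, with the summit 168 bp upstream. In replicate 2 the summit nearest to it ranked 3096, and the highest region of the window, at rank 1357, was centred 90 bp into the gene. Again only replicate 1 placed a region of the window within its highest 791. The region also lay in the window of C15H9.5, a gene on the opposite strand whose start is 1049 bp from the summit, so it was counted for both genes. The other regions of hsp-3, at ranks 4930 and 23580, lay in coding exons more than 2 kb into the gene.

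hsp-4 codes for the other BiP-like HSP70 of the ER, and is widely used as a reporter of the unfolded protein response of the ER. The window held 1 region of the list of both, at rank 26437 with a score of 35.7, where the lowest score of that list is 32.9. Its summit lay 166 bp upstream of the gene start. Replicate 1 listed no region in the window. Replicate 2 listed 3, the highest at rank 6532 and 88 bp into the gene, and the one nearest to the summit of the list of both at rank 17380. The pair of ER genes thus differed, with hsp-3 in the IDR set and hsp-4 near the bottom of the list.

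hsp-60 codes for the mitochondrial chaperonin. Its highest region, chrIII:1618894-1619377, ranked 213 in the list of both with a score of 272.6. It ranked 250 in replicate 1 with a score of 142.7, and 179 in replicate 2 with a score of 136.8. hsp-60 and hsp-1 were the genes whose highest region stood within the highest 791 of both replicates. The summit lay 606 bp upstream of hsp-60 but 207 bp upstream of Y22D7AL.10, the mitochondrial 10 kDa heat shock protein that caps the HSP60 barrel. The starts of this pair face away from each other across 812 bp, and the region lies between them, so it cannot be assigned to either gene. In replicate 2 the same stretch was split into regions at ranks 179 and 1074, with summits 677 and 475 bp upstream of hsp-60. A further 6 regions of the list of both lay in this longest window of 8062 bp, the highest at rank 1853 in an intron 2322 bp into the gene.

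hsp-6 codes for the mitochondrial HSP70 and is a reporter of the mitochondrial unfolded protein response. Its highest region ranked 5249 in the list of both with a score of 68.6, outside the IDR set. The summit lay 467 bp upstream of hsp-6 and 133 bp upstream of C37H5.5, a gene on the opposite strand described in RefSeq as a nucleolar complex protein 3 homolog, within 100 bp of the non-coding RNA genes C37H5.15 and C37H5.16. A region almost as high, at rank 5619, was centred in a coding exon 571 bp into hsp-6. Replicate 1 ranked the exonic region higher, at 2353 against 6463, whereas replicate 2 ranked the upstream region at 3860 and listed none at the exonic position. No region of hsp-6 was therefore among the highest 791 of either replicate.

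**Figure D1:**
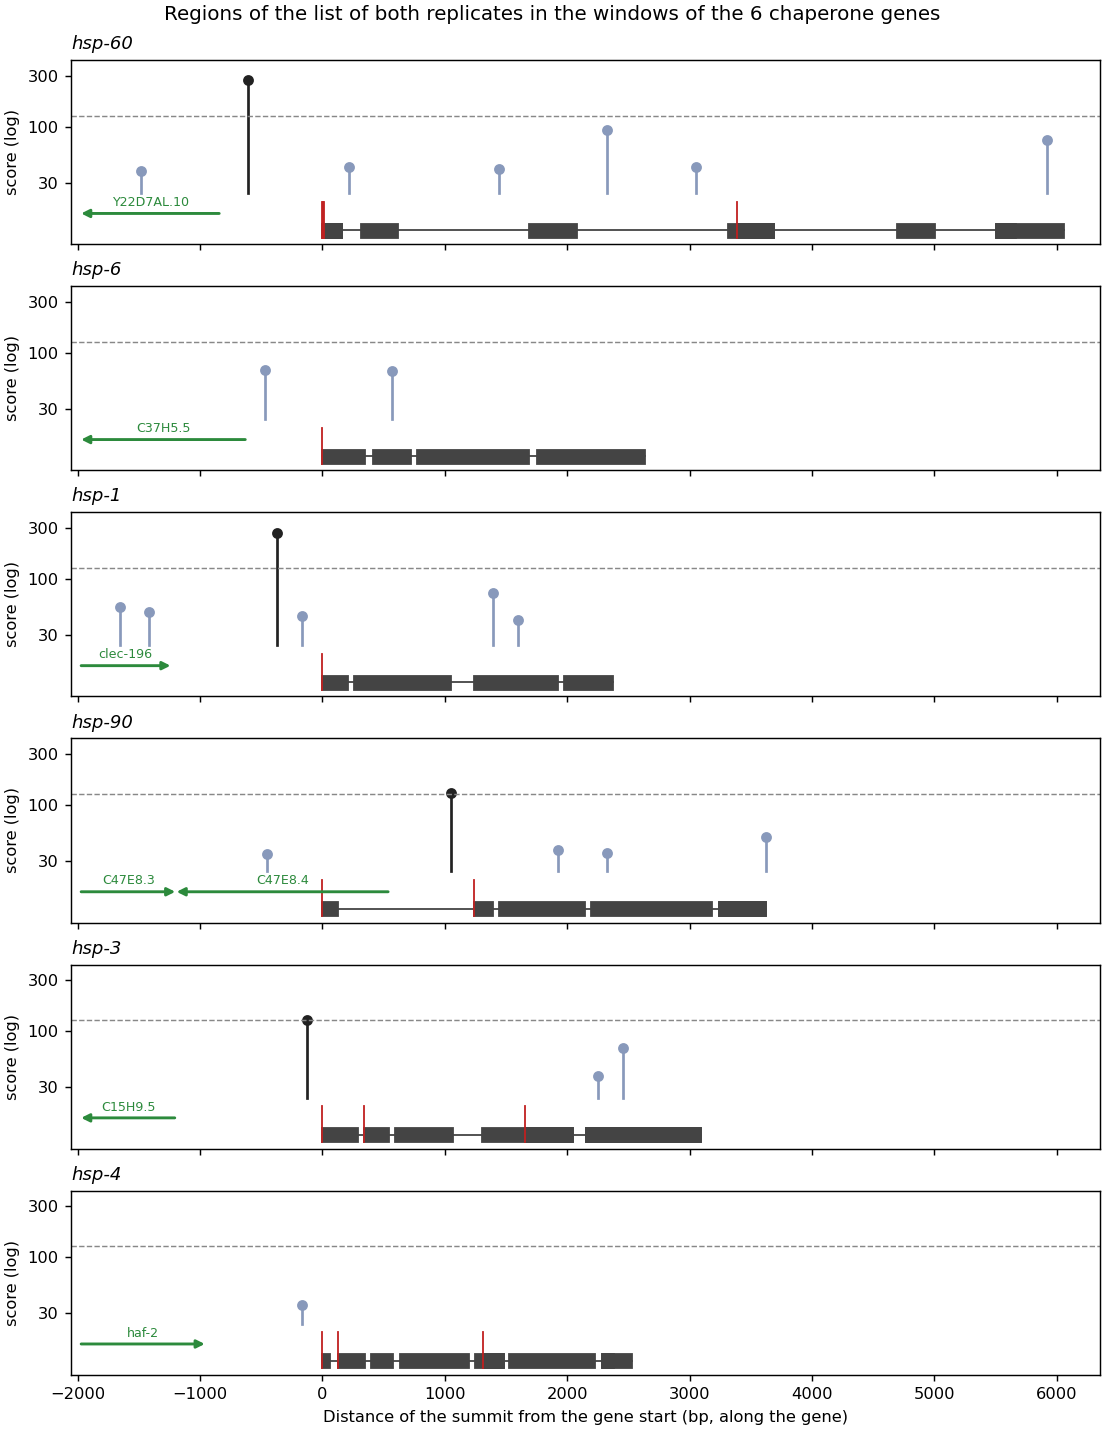
Regions of the list of both replicates in the windows of the 6 chaperone genes, by distance of the summit from the gene start in bp (horizontal axis, along the gene) and authors' score (vertical axis, log scale). Black stems are regions of the IDR set, blue stems other regions, the dashed line the lowest score of the IDR set (127.2), red ticks transcript starts, boxes exons and green arrows neighbouring genes. Only hsp-1, hsp-3, hsp-60 and hsp-90 carry a black stem, and that of hsp-90 alone stands inside the gene.

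In all, 24 regions of the list of both lay in the 6 windows. The genes with a region of the IDR set were 4 of 6 (hsp-1, hsp-3, hsp-60 and hsp-90), where 846 of 19973 coding genes, or 4.24%, had one. Since the genes were chosen with this set known, nothing is read from the difference. Among the 6062 coding genes whose windows are as long as those of the 6 chaperone genes, 303, or 5.0%, had one. The set ends at a score of 127.161, and the next region outside it scored 127.019, so hsp-90 at 130.2 and hsp-3 at 128.3 stand just inside the limit. Of all coding genes, 1.06% had a higher region than hsp-60 and 1.07% a higher region than hsp-1, against 4.01% for hsp-90, 4.18% for hsp-3, 20.7% for hsp-6 and 56.9% for hsp-4. Where each region was given only to the coding gene with the nearest start, 2 members kept one (hsp-1 and hsp-3), beside 692 coding genes, or 3.465%. The regions of hsp-60 and hsp-90 went to Y22D7AL.10 and C47E8.4. That assignment used the outermost start of each gene, and the summit of hsp-90 is closer to the start of its shorter transcript (194 bp) than to that of C47E8.4 (481 bp).

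**Figure D2:**
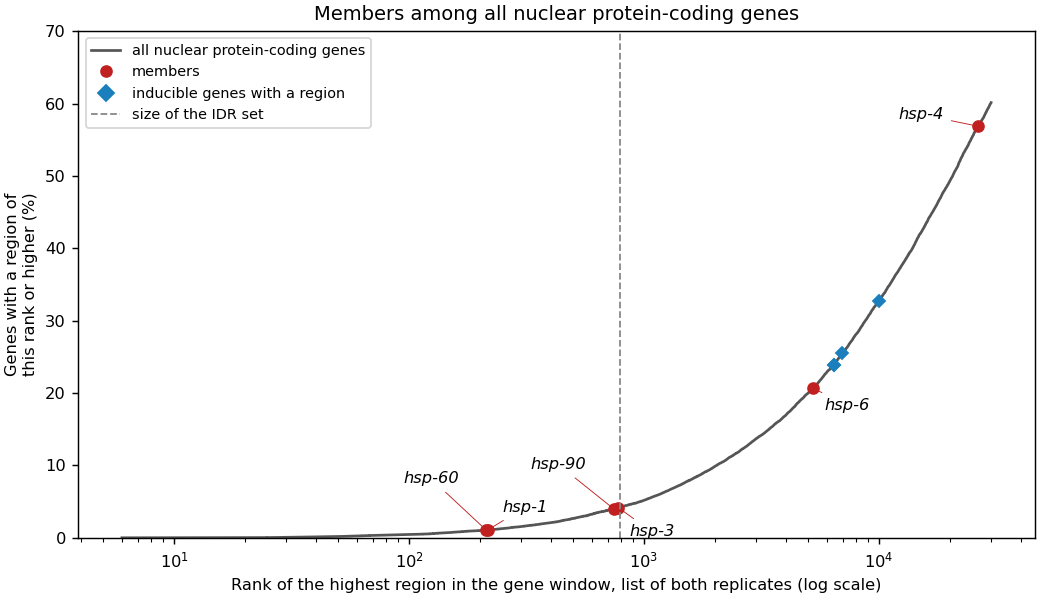
Share of all nuclear protein-coding genes (vertical axis, %) whose highest region has the rank on the horizontal axis or a higher one (log scale, list of both replicates). Red points are the 6 chaperone genes, blue diamonds the inducible genes that have a region, and the dashed line is at 791. hsp-60 and hsp-1 lie together at the far left of the members, and hsp-4 is close to the end of the curve.

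In replicate 1 alone, 4 members had a summit among the highest 791 regions, the same genes as in the IDR set, beside 4.21% of coding genes. In replicate 2 alone, 2 members did (hsp-1 and hsp-60), beside 4.1%. The rank of hsp-90 in replicate 2 was 3354, and that of hsp-3 was 3096 for the nearest summit and 1357 for the highest region of the window. Of the 100 nuclear regions at ranks 692 to 791, the median rank was 847 in replicate 1 and 1028 in replicate 2, and 20 had a rank over 3000 in replicate 2. Over all 770 nuclear regions of the set 34 did, or 4.42%. Thus hsp-1 and hsp-60 were among the highest 791 in both replicates, and hsp-90 and hsp-3 in replicate 1 only.

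**Figure D3:**
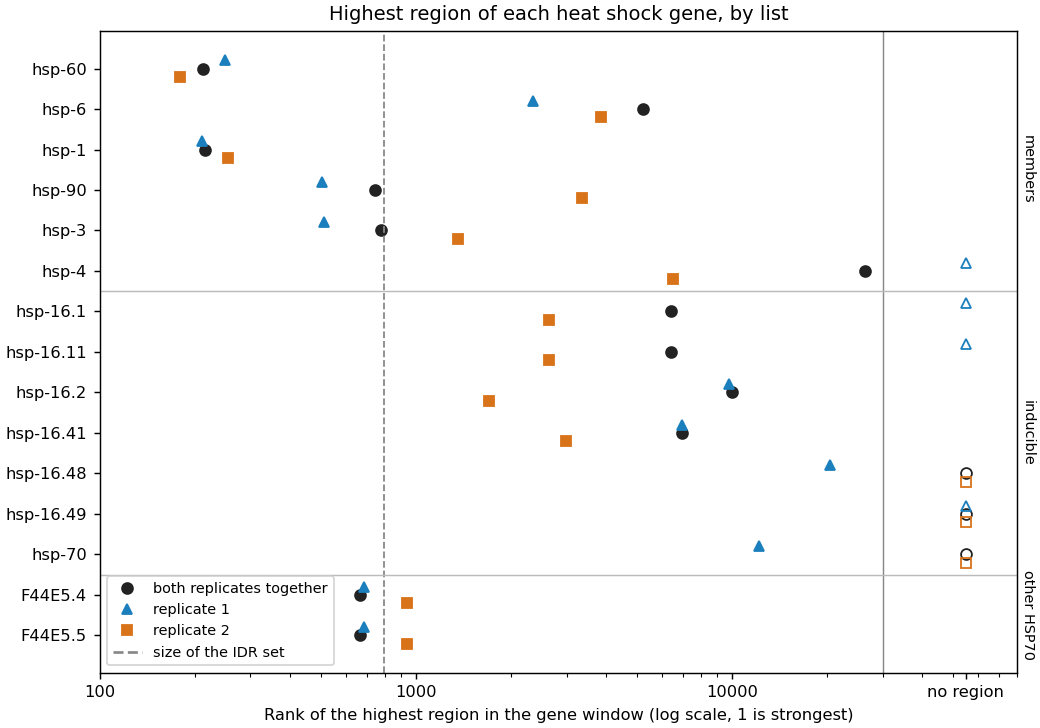
Rank of the highest region in the window of each gene (horizontal axis, log scale, 1 is the highest) in the list of both replicates (black circles), replicate 1 (blue triangles) and replicate 2 (orange squares), with open symbols where a list holds no region. hsp-60 and hsp-1 lie left of the dashed line at 791 in every list, and hsp-90 and hsp-3 cross it in replicate 2. Every symbol of the hsp-16 genes and hsp-70 lies to its right. F44E5.4 and F44E5.5, shown as other HSP70 genes, lie left of it except in replicate 2.

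The highest regions of the 4 members with a region of the IDR set stood at different places relative to their genes. Those of hsp-3, hsp-1 and hsp-60 lay upstream, at 127, 369 and 606 bp, and that of hsp-90 lay within the gene. Among the 846 coding genes with a region of the set, the median summit lay 239 bp upstream, 51.1% lay within 1 kb upstream and 28.8% lay in the gene. The quartiles of the distance were -795.5 and 457.75 bp from the gene start, negative values being upstream. The summits of hsp-3, hsp-1 and hsp-60 lay between them, and that of hsp-90, at 1048 bp, lay beyond the upper one. The median content of G and C around the summits of the set was 50.5%. Among the 4, the summit sequences of hsp-60 (55.4%) and hsp-3 (54.5%) lay above it, and those of hsp-1 (47.5%) and hsp-90 (30.7%) below.

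The inducible genes hsp-16.1, hsp-16.11, hsp-16.2, hsp-16.41, hsp-16.48, hsp-16.49 and hsp-70 code for small heat shock proteins and a stress HSP70. None of these 7 had a region of the IDR set, where 4.24% of coding genes did. None had one of the highest 791 of replicate 1 or replicate 2 either, beside 4.21% and 4.1% of coding genes. Their windows were 2487 to 4195 bp long, against 4372 to 8062 bp for the members. No share was taken over genes with windows of their length, and nothing is read from the 0. In the list of both, 4 of the 7 had any region, against 6 of 6 members and 60.1% of coding genes. The highest was at rank 6409, shared by hsp-16.1 and hsp-16.11, whose mirrored copies both reach it from more than 1 kb away, and it was listed at rank 2646 in replicate 2 and not at all in replicate 1. The highest region of hsp-16.2, 1521 bp upstream, ranked 9994 in the list of both and 9797 in replicate 1. In replicate 2 the highest was centred elsewhere, 1148 bp upstream, at rank 1703, where the list of both had rank 22301. For hsp-16.41 the highest region, 1096 bp upstream, ranked 6978 in the list of both and 6949 in replicate 1, but 15828 in replicate 2. The highest of replicate 2 was a different region, 86 bp upstream, at rank 2990. For hsp-16.48 the only region in any list ranked 20464, in replicate 1, and for hsp-16.49 there was none. hsp-70 had 1 region, at rank 12192 in replicate 1 and 181 bp upstream of its start. Every inducible gene therefore ranked below hsp-1, hsp-3, hsp-60 and hsp-90 in the list of both, while 4 of them ranked above hsp-4. In replicate 2 the order differed, and hsp-16.2, hsp-16.1, hsp-16.11 and hsp-16.41 all ranked above hsp-90, at 3354.

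Whether reads can be placed differs between these genes. In the genome, the 31-base words that occur once made up 98.3% to 100% of the windows of the 6 chaperone genes, and all words of their highest regions. For hsp-16.1, hsp-16.11, hsp-16.48 and hsp-16.49, which lie in an inverted repeat, 0 words of the genes and of the 500 bp upstream occur once, and their windows held 17.8% to 29.7%. How the authors treated reads that fit several places is not given in the sources used here, so regions could be missed at these copies, and that was not tested. The windows of hsp-16.2 (91.3%), hsp-16.41 (97.1%) and hsp-70 (over 99%) were largely unique. None of these 3 had a region of the IDR set, where 4.24% of coding genes did, and nothing is read from that.

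The promoter shared by hsp-16.2 and hsp-16.41 is shown for comparison with the members, because it is largely unique and holds heat shock elements. Its 220 bp run between the starts of the genes and are given on the strand of hsp-16.41, with heat shock elements in capitals, of which neighbouring ones overlap.
hsp-16.2 to hsp-16.41 (chrV:1804958-1805177): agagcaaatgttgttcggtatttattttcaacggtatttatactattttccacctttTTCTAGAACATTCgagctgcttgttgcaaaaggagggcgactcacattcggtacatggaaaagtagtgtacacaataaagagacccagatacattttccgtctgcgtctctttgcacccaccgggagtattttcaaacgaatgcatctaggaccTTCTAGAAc

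A region of the list of both did lie in this stretch, 95 bp upstream of hsp-16.2 and 126 bp upstream of hsp-16.41, but at rank 16907. In replicate 2 a region there ranked 2990, and in replicate 1 there was none. In the list of both it thus stood far below the promoter regions of hsp-1, hsp-3 and hsp-60, but in replicate 2 it ranked above the upstream region of hsp-3, at 3096.

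Heat shock elements varied among the members. In the 500 bp upstream of the gene start, at least 1 element was present in 48.3% of coding genes. hsp-90 had 5, a number reached by 0.576% of coding genes, hsp-1 had 3, hsp-4 and hsp-6 had 2 each, and hsp-3 and hsp-60 had 0. The inducible genes had 3 to 5 each. The summit of hsp-60 lies beyond these 500 bp. Over the whole of their highest regions, hsp-1 had 4 elements, hsp-60 and hsp-90 had 3 each, hsp-4 and hsp-6 had 2 each, and hsp-3 had 0. Whole regions were not counted over the other regions, so these numbers have no share to be set against. The elements of hsp-90 lay 10 to 317 bp upstream of its outermost start, within C47E8.4 and more than 1 kb from the summit inside hsp-90. The region nearest to them was the one at rank 27399. The 500 bp upstream of the shorter transcript of hsp-90 were not counted as a promoter. At the summits themselves, within 50 bp, an element was present in hsp-1 and hsp-4, that is in the pair of members at ranks 216 and 26437, while 38 of the 770 nuclear IDR regions (4.94%) and 3495 of the 29208 other nuclear regions had one.

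**Figure D4:**
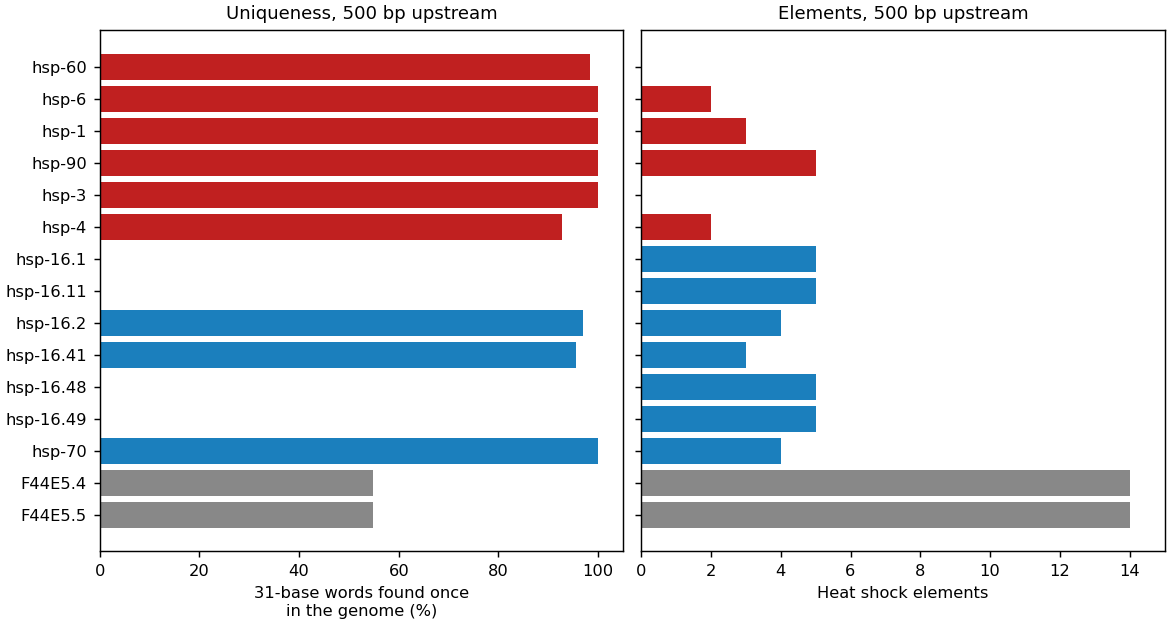
Left, share (%) of 31-base words of the 500 bp upstream of each gene that occur once in the genome, and right, number of heat shock elements in the same 500 bp, overlapping elements counted separately. Red bars are the 6 chaperone genes, blue bars the inducible genes and grey bars the HSP70 genes F44E5.4 and F44E5.5. The grey bars reach 14 elements, the same ones for both genes, whereas hsp-60 and hsp-3 have 0.

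The core described for CHE-1 was found within 50 bp of 0 of the 6 summits, beside 6.23% of IDR regions and 8.62% of other regions. In the 500 bp upstream, hsp-60 had 3 cores, a number reached by 0.766% of coding genes, and hsp-90 had 1, where 29.8% of coding genes had at least 1. The cores of hsp-60 lay 388, 249 and 86 bp upstream of its start, all outside the 101 bp around the summit. The core at 388 bp nevertheless lay within the highest region of hsp-60, and the others lay past the end of that region. Cores were not counted over whole regions. CGCACA was present near the summits of hsp-3 and hsp-6, beside 13.6% of IDR regions and 3.34% of other regions. TATAAA and TGACGT were present near the summit of hsp-3 alone, beside 5.97% and 3.25% of IDR regions and 7.98% and 3.19% of other regions. GAGAGA was present near that of hsp-1 alone, beside 126 of 770 IDR regions and 9.22% of other regions. CCAAT, searched on both strands after the sequences had been seen, occurred at 2 places near the summit of hsp-60 and 1 near that of hsp-6, where 14.7% of IDR regions and 20.1% of other regions had at least 1. Within 50 bp of the summits no searched element was shared by more than 2 members. Within 100 bp the heat shock element was in 3 (hsp-1, hsp-4 and hsp-60), beside 104 of 770 IDR regions and 6556 of 29208 other regions. CGCACA was in 3 within 100 bp (hsp-3, hsp-6 and hsp-60), beside 165 of 770 IDR regions and 1896 of 29208 other regions. Absence of these letters says nothing about other ways of binding.

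Of 74 other chaperone and proteostasis genes listed by role, 73 matched the annotation. Of these, 8, or 11.0%, had a region of the IDR set, where 4.24% of all coding genes did. Among the 8, F44E5.4 and F44E5.5 share a single region, and that of Y22D7AL.10 is the one also counted for hsp-60. No share was taken over genes with windows of their length. The highest regions of the 65 genes with any region had a median rank of 4280, beside 760 for the members and 8779 for all coding genes with a region. These lists were also made with earlier results known, and no test was made. In the HSP70 system of the cytosol, which works with hsp-1, 2 of 12 genes had a region of the set, F44E5.4 and F44E5.5, and next came the J-domain gene dnj-19 at rank 879 and the exchange factor hsp-110 at rank 963. Of the 6 partners of hsp-90 none did, with the activator ahsa-1 at 1828 and the kinase cochaperone cdc-37 at 2591 the highest. For the cytosolic chaperonin TRiC the count was 1 of 8, cct-8 at rank 470, followed by cct-7 at 2601 and cct-6 at 2608. For prefoldin, which hands proteins to TRiC, it was 1 of 6, pfd-5 at rank 754, followed by pfd-1 at 855 and pfd-3 at 2788.

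Among 14 genes of folding in the ER, where hsp-3 and hsp-4 act, 2 had a region of the set. These were T24H7.2 at rank 117, with the summit 1352 bp into the gene, and the protein disulfide isomerase pdi-2 at rank 493, with the summit 53 bp upstream. The ER HSP90 enpl-1 followed at 1480 and stc-1 at 2839. Among 8 mitochondrial genes 1 had one, Y22D7AL.10, through the region it shares with hsp-60, and the protease genes clpp-1 and ymel-1 followed at 1257 and 2867. The 8 small heat shock protein genes outside the hsp-16 group had none, with hsp-25 at 2196 and hsp-12.2 at 4893 the highest. Among the 11 matched regulators 1 had one, the ER stress factor atf-6 at rank 514, and the ER stress genes xbp-1 and ire-1 followed at 979 and 1141. The heat shock factor gene hsf-1 itself had its highest region at rank 7754. High ranks were thus spread over several roles, with 1 or 2 genes in each of 6 of the 8 groups.

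The replicates differed in both directions among these genes, and the examples were chosen after their values were seen. pfd-5 ranked 520 in replicate 1 and 9248 in replicate 2. pdi-2 ranked 301 and 3410. The other way round, cct-7 ranked 9113 in replicate 1 and 1011 in replicate 2, and bag-1 ranked 3513 and 738. Others were alike in both, as T24H7.2 was with 113 and 132.

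**Figure D5:**
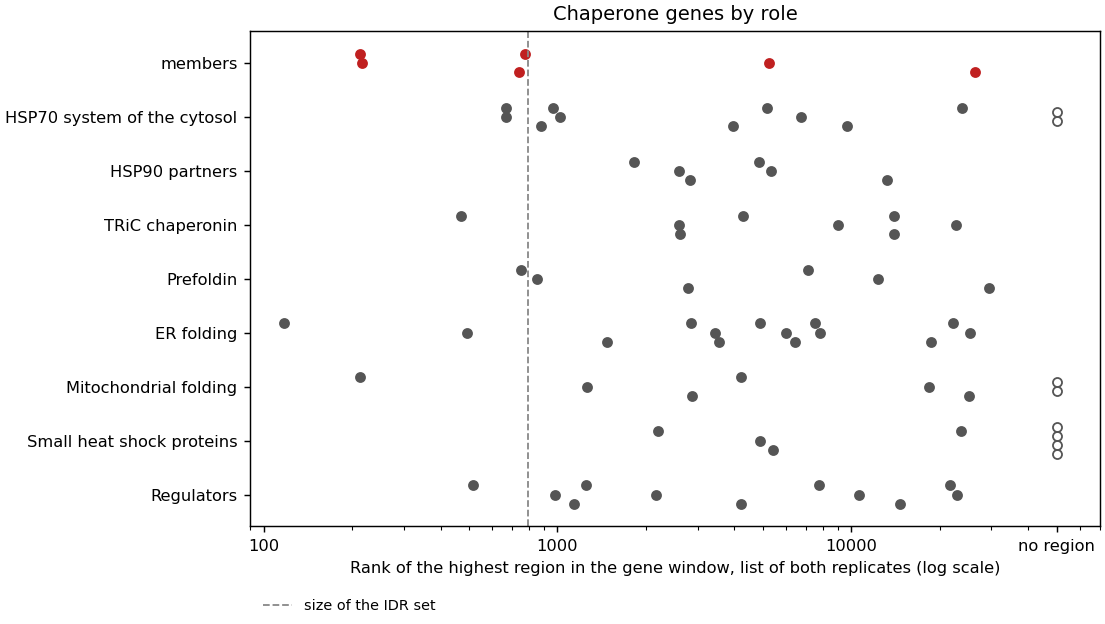
Rank of the highest region in the gene window (horizontal axis, log scale, list of both replicates) of the 6 chaperone genes (red) and of 73 other chaperone and proteostasis genes by role (grey), with open symbols for genes without a region and a dashed line at 791. 6 of the 8 roles have a gene left of the line, and the groups of HSP90 partners and small heat shock proteins have none there.

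F44E5.4 and F44E5.5 were looked at more closely after their ranks had been seen, because they are heat-inducible HSP70 genes in C. elegans that had a region of the set while hsp-70 did not. They are a near-identical pair with starts 350 bp apart, facing away from each other. Their shared region is printed whole, on the strand of F44E5.5, with its 7 heat shock elements in capitals, many of which overlap.
F44E5.4 and F44E5.5 (chrII:11759371-11759572): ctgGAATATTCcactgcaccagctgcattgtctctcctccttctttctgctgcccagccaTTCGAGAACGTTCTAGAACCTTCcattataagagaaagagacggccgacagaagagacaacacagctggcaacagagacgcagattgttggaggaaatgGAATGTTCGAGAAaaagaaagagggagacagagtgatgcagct

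This region ranked 666 in the list of both, 685 in replicate 1 and 938 in replicate 2, so replicate 2 alone would place it outside the highest 791. Its summit lay 132 bp upstream of F44E5.4 and 219 bp upstream of F44E5.5. Upstream of each gene 14 elements were found in 500 bp, a number reached by 10 coding genes (0.05%), this pair included. They are the same 14 elements for both genes, since all lie between the starts. Within 50 bp of the summit there were 4, which 2 of 770 nuclear IDR regions and 20 of 29208 other nuclear regions had. All 31-base words of the region occur once in the genome, whereas 54.9% of those in the 500 bp upstream and 1.84% and 1.89% of those in the genes do. Of this pair and the 7 inducible genes of the hsp-16 and hsp-70 list, only the pair had a region of the IDR set, where 4.24% of coding genes did. The pair counts through a single shared region and was picked after its rank was seen, so nothing is read from the difference.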

How the data were processed

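The authors deposited 4 region lists of build ce11 used here: 1 per replicate, 1 called on both together and the IDR set, each against a control, per the descriptions deposited with the samples. Column 7 is a score by the authors on an unstated scale, used only to rank regions within a list, and the deposited q column, also a score, served in 1 alternative. Caller, aligner, IDR threshold and read depth were not given in the sources used here. The ce10 lists and text notes were not used.

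Genes came from the Ensembl release 115 annotation of WBcel235, and hsp-16.11 and hsp-16.49 were named from RefSeq. Every region with a summit between 2 kb upstream of a gene start and the gene end was assigned. Mitochondrial regions were left out of gene counts. Elements were searched in the RefSeq genome within 50 bp of summits and in 500 bp upstream of genes, and 31-base words were counted over the genome on both strands. The members and lists were chosen with earlier results of these data known. The 500 bp search, the CCAAT search, the windows of matched length and the account of F44E5.4 and F44E5.5 were added after seeing the data. Named genes are the members, the inducible genes, their nearest neighbours and, in each role, genes with an IDR region and the next 2 by rank, and hsf-1 was added after its value was seen. Assignment was checked on simulated data. With 1 group and 2 replicates, no test was made. Python 3.11.15, numpy 2.4.6, pandas 2.3.3 and matplotlib 3.10.9 were used.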

Additional observations from a re-analysis of the deposited data

How the results depend on the processing

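The count of 4 members with a region of the IDR set stayed at 4 with windows from 1 kb or 5 kb upstream, with overlap in place of the summit, and with 2 times as many regions. It was 2 where each region went only to the gene with the nearest start, and 2 with the higher-scoring 395 regions, and it ranged from 2 (without replicate 1) to 4 (without replicate 2). The inducible genes stayed at 0 in these 8 alternatives. Over all coding genes the count of 846 moved to 410 with the 395 regions and to 1608 with 2 times as many. It was 681 and 1260 with windows from 1 kb and 5 kb upstream, 946 with overlap and 692 with the nearest start. Without replicate 1 it was 819, and without replicate 2 it was 840. Near the summits, CGCACA was in 0 members and TATAAA in 0 within 25 bp, beside 57 and 20 of the 770 nuclear IDR regions. Of the 29208 other nuclear regions, 476 and 1151 had them within 25 bp. Within 100 bp TGACGT was in 2 members, the heat shock element in 3 and CGCACA in 3. In the same order, 45, 104 and 165 IDR regions and 1855, 6556 and 1896 other regions had them. By the q column the highest region ranked 519 for hsp-3, 554 for hsp-90 and 26521 for hsp-4, which has no region in replicate 1 and so no spread between replicates. Precision is limited by 2 replicates and unknown read depth. No paired analysis was possible because there is 1 group and no test.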
